A study of Mus musculus with 7 samples.

Results

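Cdk5r2 and Fev are a pair of neighbouring genes on mouse chromosome 1 with known roles in neurons, and they lie outside the domain of Epha4. They were taken by name from the authors' gene tables, which list 103 genes with 1 scaled contact value each between the start site of the gene and an enhancer region. Both were chosen by their scaled contact, as genes brought beside that region in the inversion named Inv3, so their table values are a description and carry no test. Tables were deposited for wild type (WT) limb buds and for limb buds of 4 CRISPR/Cas9 inversions, Inv1, Inv2, Inv3 and Inv4. Contact maps were deposited for these 5 libraries, for Inv1 limb buds with a further deletion (Inv1DelCTCF) and for Inv1 embryonic stem cells (Inv1 ESC), 7 libraries in all.

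Each condition was 1 capture Hi-C library, so every difference below is between libraries and has no replicate check. Limb bud libraries came from fore- and hindlimb buds of 10 pooled embryos at stage E11.5, and their titles also read Distal. The cell type field reads G4 ESC for every library, including the limb buds, and the title of Inv1DelCTCF names CTCF as deleted but gives no site or extent. No label states whether embryos still carried a WT chromosome. The assay measures DNA contacts and no RNA, so neither the tissue nor the activity of Cdk5r2 and Fev could be checked. Off-diagonal read pairs recovered from the maps numbered 3037260 to 4077038 in WT, Inv1, Inv1DelCTCF and Inv1 ESC. Maps of the other 3 libraries, Inv2 to Inv4, held negative values that matched a weighted WT map taken away from them. The gene tables of Inv2, Inv3 and Inv4 also held negative values, for 25, 13 and 12 genes, and those of WT and Inv1 held none. Table values of these 3 inversions may thus not be plain contact, and their ratios, ranks and order beside WT and Inv1 carry that limit. Outside the rearranged area the maps of Inv2 to Inv4 held 2277964 to 2867963 read pairs, against 3307153 in WT.

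Cdk5r2 encodes p39, a neuronal activator of the kinase Cdk5, which acts in neuron migration and axon growth. Fev, also called Pet1, encodes an ETS family transcription factor that is needed for serotonergic neurons to take on their identity. Neither gene is known as a limb patterning gene, whereas Epha4 encodes an ephrin receptor of the limb bud mesenchyme and motor neurons. Enhancers usually meet promoters of their own domain, and domain borders, often bound by the protein CTCF, keep other promoters apart. An inversion with 1 end in a domain carries part of that domain next to new genes.

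The promoters are shown because the tables measured contact at the start sites and because the assay cuts chromatin at DpnII sites. Both sequences are the 250 bases before the start in RefSeq (GRCm38.p6), 5′ to 3′ in gene direction. Cdk5r2 is at chr1:74854779-74855028 on the plus strand and Fev at chr1:74885409-74885658 on the minus strand. Capitals mark 3 motifs searched on both strands: the DpnII site (GATC), an ETS core (CGGAA or TTCCG) and a GC box (GGGCGG or CCGCCC).
Cdk5r2: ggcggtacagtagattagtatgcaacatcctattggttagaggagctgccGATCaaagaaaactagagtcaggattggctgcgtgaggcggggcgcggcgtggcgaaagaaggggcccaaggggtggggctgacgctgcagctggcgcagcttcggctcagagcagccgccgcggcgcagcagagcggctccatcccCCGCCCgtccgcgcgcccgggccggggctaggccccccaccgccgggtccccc
Fev: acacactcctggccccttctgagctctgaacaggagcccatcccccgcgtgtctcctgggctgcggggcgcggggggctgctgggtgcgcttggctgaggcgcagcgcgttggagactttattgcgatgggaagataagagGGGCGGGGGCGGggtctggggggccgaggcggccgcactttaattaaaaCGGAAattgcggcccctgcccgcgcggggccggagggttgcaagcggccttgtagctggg
The Cdk5r2 sequence held 1 DpnII site, 1 GC box and no ETS core. The Fev sequence held no DpnII site, 2 adjoining GC boxes that do not overlap, and 1 ETS core. Of 32851 promoter windows of this length, 41.9% held a DpnII site, 25.2% the ETS core and 32.7% the GC box. GC content was 68.8% in Cdk5r2 and 68.0% in Fev, against a median of 52.4% over all windows. In the order of protein-coding genes in RefSeq, Wnt10a precedes Cdk5r2, Fev follows it directly, and Cryba2 comes after Fev, as in the tables.

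Cdk5r2 had little contact with the enhancer region in WT limb buds and the most in Inv3. Its scaled contact was 0.365 in WT, and in Inv1, Inv2, Inv3 and Inv4 it was 5.44, 7.09, 20.05 and 1.81. The Inv3 value was the second highest of the 103 genes, and the WT value ranked 59. Its log2 ratios to WT, on log2(value + 0.5), were 2.78, 3.13, 4.57 and 1.42 for Inv1 to Inv4. After centring on the median gene the Inv4 ratio was 0.34.

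Fev was the gene with the highest contact in the Inv3 table. Its values were 1.31 in WT and 4.28, 6.73, 36.4 and -0.066 in Inv1, Inv2, Inv3 and Inv4. Inv3 thus stood 29.7 units above Inv2, the next library, while Inv2 and Inv1 differed by 2.45 units. Log2 ratios of Fev to WT were 1.40, 1.9997, 4.35 and -1.85 for Inv1 to Inv4, the last from a negative value set to 0. After centring on the median gene the Inv1 ratio was 0.78. Fev ranked 16 of 103 in WT and 92 in Inv4.

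**Figure D1:**
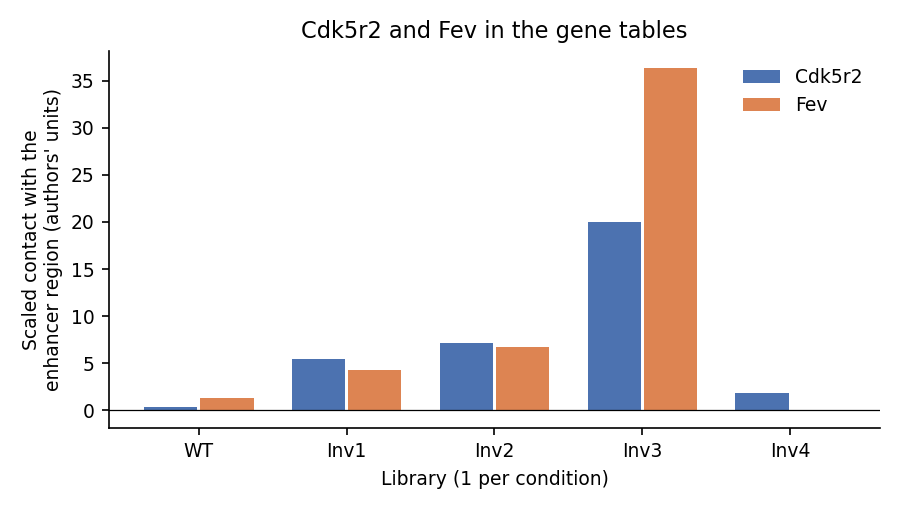
Scaled contact of Cdk5r2 and Fev with the enhancer region (bars, authors' units) in the 5 libraries that have a gene table, with 1 library per condition. Both genes are highest in Inv3, at 20.05 and 36.4, and Fev lies at -0.066 in Inv4.

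The order of libraries was Inv3, Inv2, Inv1, Inv4 and WT for Cdk5r2, and Fev had the same order except that Inv4 lay below WT. Among 35 genes far from the inversions, differences to WT had SDs of 0.321, 0.406, 0.608 and 0.601 units for Inv1 to Inv4. The step of Cdk5r2 from Inv1 to Inv2 was 1.66 units and its step from WT to Inv4 1.45 units. The authors' scaling may differ from table to table and the read pairs behind a table value are unknown, so neither of these small steps could be set against counting error. Cdk5r2 was more than 2-fold above WT in all 4 inversions and Fev in Inv1, Inv2 and Inv3, where 35.9%, 19.4%, 45.6% and 52.4% of all genes passed in Inv1 to Inv4. At 4-fold Cdk5r2 passed in Inv1, Inv2 and Inv3 and Fev in Inv3, against 20.4%, 11.7%, 17.5% and 24.3% of all genes. With a pseudocount of 0.05 the shares of all genes over 2-fold were 57.3%, 34%, 57.3% and 65%, and with 5 they were 16.5%, 6.8%, 4.85% and 10.7%. With a pseudocount of 5 the members' calls ended for Cdk5r2 in Inv1 (0.96) and Inv4 (0.34) and for Fev in Inv1 (0.56) and Inv2 (0.90). After centring, the shares of all genes over 2-fold were 20.4%, 19.4%, 23.3% and 23.3%. The genes were chosen for the Inv3 contrast, so nothing is read from their count.

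The genes did not keep 1 ratio to each other. Fev over Cdk5r2 was 3.59 in WT, 0.787 in Inv1, 0.949 in Inv2 and 1.81 in Inv3. Fev minus Cdk5r2 was -1.16 units in Inv1, -0.363 in Inv2 and 16.3 in Inv3. In Inv3 contact climbed gene by gene up to Fev. It was 10.5 at Prkag3, 15.4 at Wnt6, 16.6 at Wnt10a, 20.05 at Cdk5r2 and 36.4 at Fev, and 1.03 at Cryba2, a lens crystallin gene, a 35.4-fold fall between neighbours.

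In Inv4 the fall lay on the other side of the same group of genes. Contact in Inv4 fell from 33.9 at Prkag3, a subunit gene of the AMP-activated kinase, to 0.545 at Wnt6. Wnt6, Wnt10a, Cdk5r2 and Fev together had medians of 0.549 in WT and 4.34, 5.47, 18.3 and 0.655 in Inv1 to Inv4. The 6 genes from Cryba2 to Slc23a3, on the far side of the fall in Inv3, had medians of 0.650, 6.47, 8.94, 1.55 and 2.77 in the same libraries. Fev and Cryba2 stood at 4.28 and 6.62 in Inv1 and at 6.73 and 8.92 in Inv2, and parted in Inv3.

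**Figure D2:**
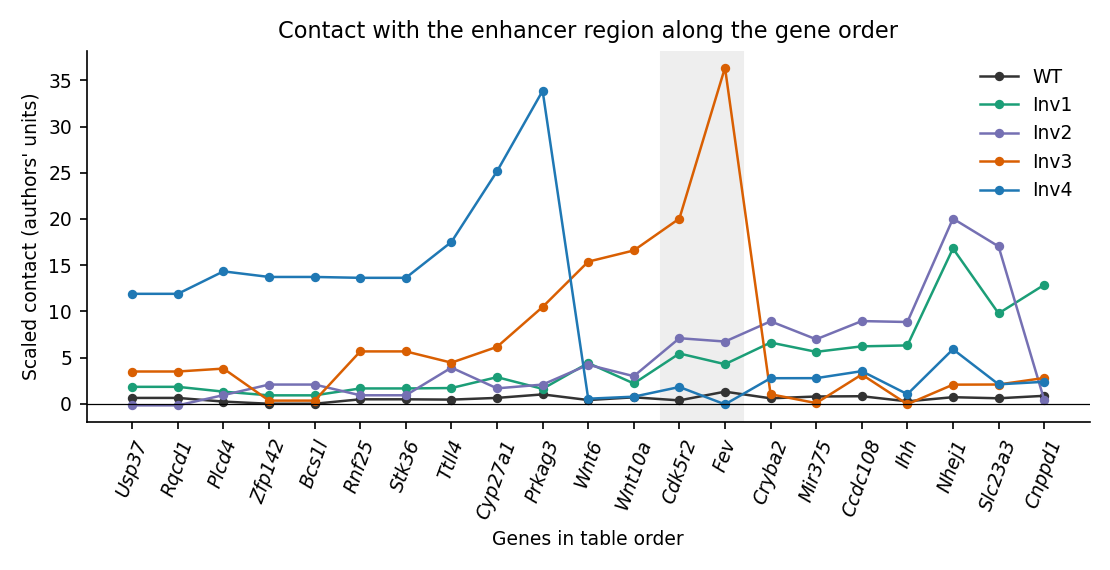
Scaled contact (authors' units) of the genes from Usp37 to Cnppd1 in table order, with 1 line per library and Cdk5r2 and Fev on a grey ground. The Inv3 line climbs to 36.4 at Fev and drops to 1.03 at Cryba2, while the Inv4 line drops from 33.9 at Prkag3 to 0.545 at Wnt6.

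The genes most like Cdk5r2 over the 5 libraries, by Euclidean distance of log2(value + 0.5), were Wnt6 (1.42), Wnt10a (1.90), Fev (2.61) and Ccdc108 (2.71). Wnt6 and Wnt10a encode secreted Wnt ligands. For Fev they were Wnt6 (2.0001), Wnt10a (2.28), Cdk5r2 (2.61) and Asic4 (3.55), the last an ion channel gene. With each gene divided by its own sum, 3 of the 4 genes nearest to Cdk5r2 and 2 of the 4 nearest to Fev were the same.

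Other genes with neuronal or neuroendocrine roles did not peak in the same library. The list held Ptprn, Resp18, Scg2, Mir375, Epha4 and Pax3 besides the pair. From Inv1 to Inv4, 3, 2, 1 and 3 of these 6 exceeded WT by over 2-fold, against 35.9%, 19.4%, 45.6% and 52.4% of all genes. Under WT by as much lay 1, 3, 3 and 2 of the 6, against 3.88%, 16.5%, 10.7% and 6.8% of all genes. Their median log2 ratio was 1.29, -1.13, -0.96 and 0.48, against 0.62, 0.0044, 0.81 and 1.08 over all genes. Ptprn, a receptor-like phosphatase gene of secretory granules, had 1.35 in WT, 22.99 in Inv1 and 0.102 in Inv3. Mir375, a microRNA gene of neuroendocrine cells 2 places after Fev in the tables, stood at 0.784 in WT, 6.98 in Inv2 and 0.068 in Inv3. Scg2, a secretogranin gene, lay between -0.241 and 0.305 in all 5.

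The maps gave a second readout of the same libraries and covered 2 more. The tables state no coordinates, and a search for map intervals whose signal gave the table values matched at most 6 of 79 WT values, so neither gene was placed in a single bin. The breakpoints were used as bounds instead. Mirrored bin factors gave the midpoint of each inverted segment, and the right breakpoint was set at 75.89 to 75.90 Mb in all, not fitted. With this setting the left breakpoint of Inv4 lay at 74.80 to 74.81 Mb and that of Inv3 at 74.93 to 74.94 Mb (mm9). Mean mismatch of bin factors to WT was 0.256 mirrored against 0.351 unmirrored in Inv3, and 0.328 against 0.428 in Inv4. No mm9 gene positions were at hand, so the genes beside each breakpoint were inferred from the falls in table values. These lay between Prkag3 and Wnt6 in Inv4 and between Fev and Cryba2 in Inv3. The 12 bins of 10 kb from 74.81 to 74.93 Mb are called the Wnt6 to Fev stretch below. Fev was taken as its last gene before the Inv3 breakpoint. The bins that hold the breakpoints were left out, and the promoter positions above are of another build. Whether the start site of Fev lies inside the stretch was thus not settled. The part of the Epha4 domain that moves in every inversion, called the moved part, was taken from the WT border to the shared right breakpoint, at 75.63 to 75.89 Mb. No file states that it equals the enhancer region of the tables.

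The Wnt6 to Fev stretch met the moved part most in Inv3. The moved part took 0.917% ± 0.031 of its contacts in WT, and in Inv1, Inv2, Inv3 and Inv4 it took 5.33% ± 0.086, 5.78% ± 0.13, 20.08% ± 0.24 and 1.196% ± 0.081. Errors are counting standard errors, which are approximate in Inv2 to Inv4. These shares were 5.81 ± 0.22, 6.31 ± 0.25, 21.9 ± 0.78 and 1.30 ± 0.098 times that of WT. The order Inv3, Inv2, Inv1, Inv4 and WT is that of Cdk5r2 and Wnt10a in the tables, which come from the same libraries. There Wnt6 had Inv1 above Inv2, and Fev had Inv4 below WT. The pair was chosen by its table values, so the shared order is a description. Shares of Inv2 and Inv1 differed by 0.456 percentage points, with a 95% counting interval of 0.155 to 0.757. Those of Inv4 and WT differed by 0.279, with an interval of 0.109 to 0.448. These intervals do not cover the WT signal taken from the Inv2 and Inv4 maps. With negative signal set to 0, the log2 ratio to WT went from 2.66 to 2.58 in Inv2, beside 2.54 in Inv1. In Inv4 it went from 0.38 to 0.45.

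The mean distance between the stretch and the moved part was 890 kb in WT and Inv4, 540 kb in Inv1, 400 kb in Inv2 and 200 kb in Inv3. Divided by the mean contact at the same distance in the same map (observed over expected), contact was 0.324 ± 0.011 in WT. In Inv1, Inv2, Inv3 and Inv4 it was 1.02 ± 0.016, 0.838 ± 0.018, 1.38 ± 0.016 and 0.374 ± 0.025. In WT and Inv4 contact was thus below the mean for its distance, and in Inv3 above it. On this scale Inv1 stood above Inv2, the reverse of their order in shares.

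Within the stretch, the share of contacts was highest in the bins nearest the Inv3 breakpoint. In Inv3 the share ran from 11.7% in the bin farthest from the breakpoint to 40.1% ± 1.1 in the nearest, with a median of 17.8% over 12 bins. The 2 nearest bins were at 35.03% and the 2 farthest at 12.98%, a ratio of 2.70 ± 0.11. This ratio was 1.80 ± 0.10 in Inv1, 1.93 ± 0.15 in Inv2, 2.14 ± 0.57 in Inv4 and 1.13 ± 0.13 in WT. As observed over expected, contact in Inv3 showed no steady climb along the stretch. It was 1.13 in the farthest bin, 1.61 in the bin 100 kb from the breakpoint, 1.12 at 40 kb and 1.85 in the nearest. The nearer 6 bins stood at 1.39 and the farther 6 at 1.37. WT bins lay between 0.762% and 1.102%, with no climb beyond counting error.

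**Figure D3:**
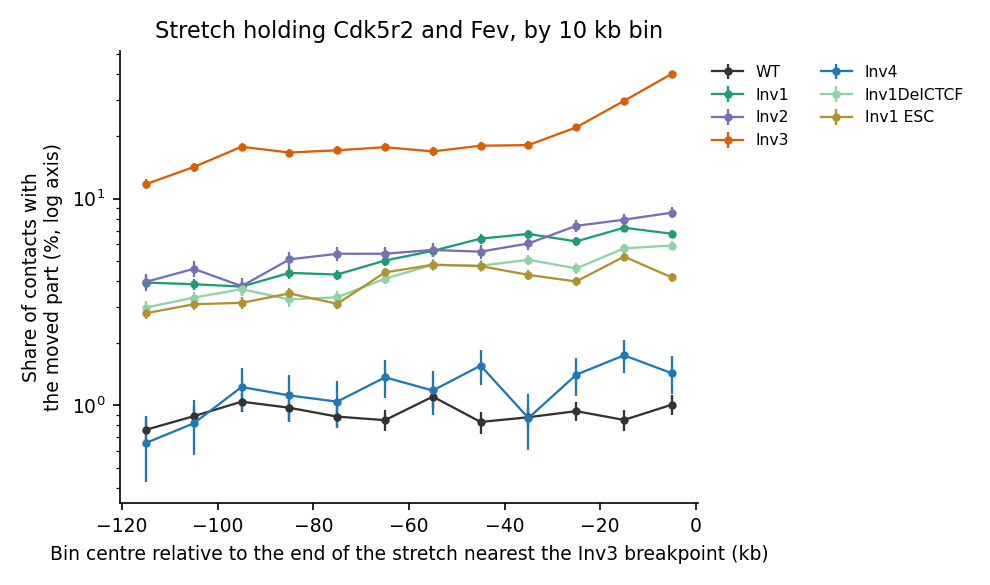
Share of contacts that each 10 kb bin of the Wnt6 to Fev stretch has with the moved part (percent, log axis), against the distance of the bin to the end nearest the Inv3 breakpoint. Points are bins, lines are the 7 libraries and bars are counting standard errors; Inv3 climbs to 40.1% and WT stays between 0.762% and 1.102%.

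Contact of the stretch was not even along the moved part. In Inv3 the bin with the highest share, 1.77% ± 0.070, began 250 kb from the shared breakpoint, at 75.64 Mb beside the WT border, although that end lies farther from the stretch. It was 2.53 times the median bin, with an observed over expected contact of 5.45. The 3 bins from 75.63 to 75.66 Mb, picked after these values were seen, had an observed over expected contact of 4.10 ± 0.11 in Inv3, against 1.19 ± 0.016 in the other 23 bins. The same 3 bins were at 0.371 ± 0.030 in WT, 1.71 ± 0.070 in Inv1, 1.503 ± 0.082 in Inv2 and 0.376 ± 0.072 in Inv4. Across the stretch in Inv3 this contact was highest in the bin nearest the Inv3 breakpoint, at 8.04 ± 0.48, and ranged down to 2.29. In Inv1 and Inv2 the highest bin was the same one, at 2.65 and 2.73.

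**Figure D4:**
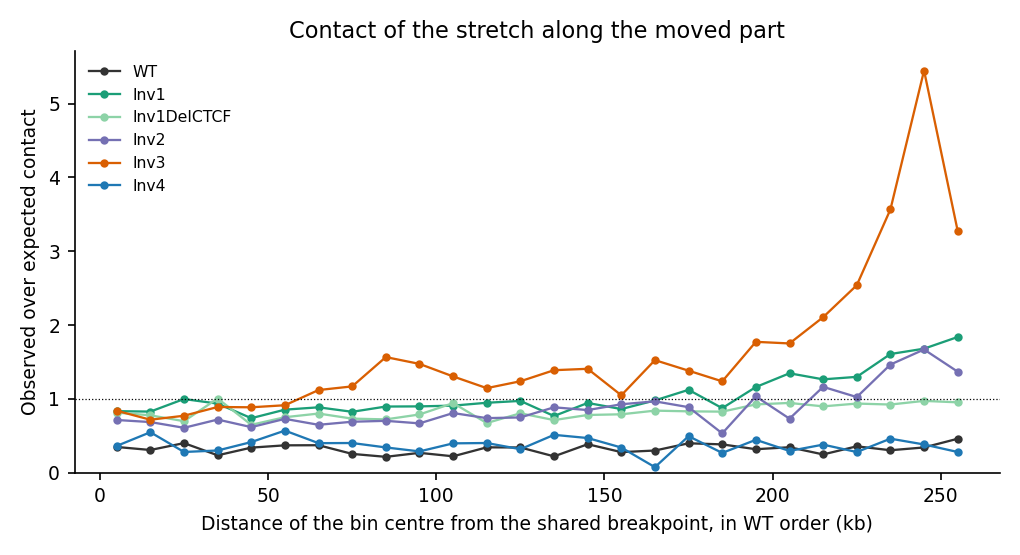
Observed over expected contact of the Wnt6 to Fev stretch with each 10 kb bin of the moved part, against the distance of that bin from the shared breakpoint in WT order, for 6 libraries; the dotted line marks 1. The Inv3 line peaks at 5.45 near the border end, where WT stands at 0.344 and Inv1DelCTCF at 0.974.

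In Inv3 the stretch also parted from its WT neighbours. The region from 74.95 to 75.13 Mb is called that of Cryba2 to Slc23a3, although its genes were inferred and not located. It ends at the left breakpoint of Inv2, and scaled contact in Inv2 was 17.03 at Slc23a3 and 0.438 at Cnppd1. Contact of the stretch with this region was 11.7% ± 0.13 in WT. In Inv1, Inv2, Inv3 and Inv4 it was 11.1% ± 0.14, 11.6% ± 0.26, 1.38% ± 0.22 and 8.64% ± 0.26. The mean distance to this region was 170 kb in WT and 920 kb in Inv3. Observed over expected contact was 1.05 ± 0.012 in WT and 0.724 ± 0.11 in Inv3.

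In Inv4 the stretch lay inside the inverted segment and came to lie beside the rest of the Epha4 domain (75.90 to 77.52 Mb). That domain took 33.7% ± 0.32 of the contacts of the stretch in Inv4. It took 3.49% ± 0.060 in WT, 4.17% ± 0.075 in Inv1, 3.61% ± 0.14 in Inv2 and 3.48% ± 0.14 in Inv3. The Inv4 share was 9.65 ± 0.19 times that of WT, and observed over expected contact was 1.06 ± 0.010 against 0.494 ± 0.0085. A higher share was also measured past this domain. The region beyond it (77.52 to 81 Mb) took 16.7% ± 0.27 in Inv4 and 4.19% ± 0.077 in WT. Observed over expected contact there was 2.93 ± 0.048 against 1.32 ± 0.024. The Inv4 values come from a map with WT signal taken away, and no alternative setting was run for this region. Contact with the 1000 kb upstream of the Inv4 breakpoint was 20.6% ± 0.16 in WT, 17.3% ± 0.36 in Inv3 and 3.20% ± 0.30 in Inv4. The mean distance to it was 580 kb in WT and 1540 kb in Inv4, and observed over expected contact was 0.813 ± 0.0065 and 0.505 ± 0.047. The stretch thus met the moved part most in Inv3 and the remaining domain most in Inv4.

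**Figure D5:**
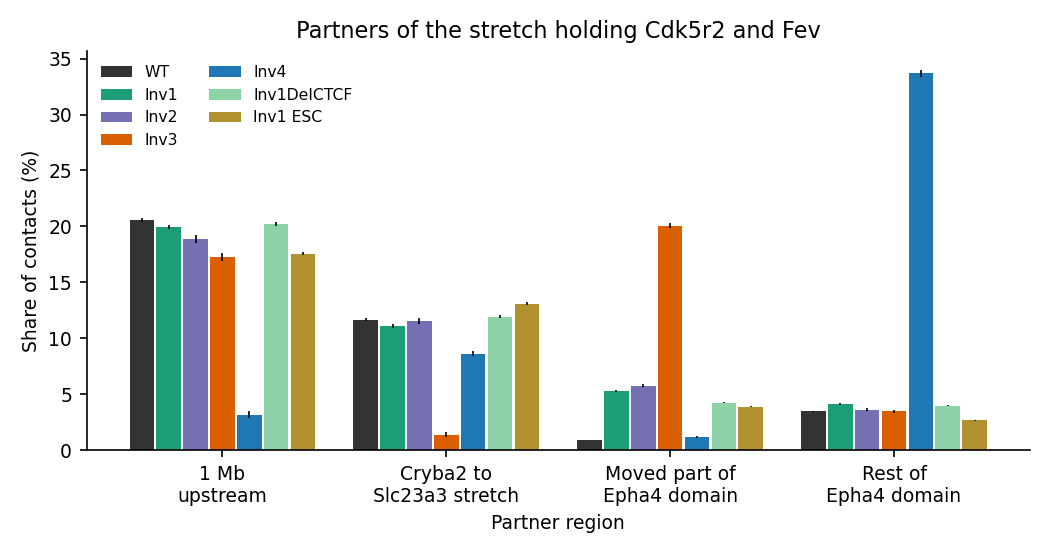
Share of contacts of the Wnt6 to Fev stretch with 4 partner regions (bars, percent) in the 7 libraries, with counting standard errors. The moved part stands out in Inv3 at 20.08% and the rest of the Epha4 domain in Inv4 at 33.7%.

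The pair has no table value in Inv1DelCTCF and Inv1 ESC. There the maps describe only the stretch as a whole, with Wnt6 and Wnt10a in it, and not the pair itself. The moved part took 4.27% ± 0.079 of the contacts of the stretch in Inv1DelCTCF, which is 0.802 ± 0.020 times the Inv1 share and 4.66 ± 0.18 times that of WT. Contact with the 3 bins at the border end was 0.951 ± 0.055 observed over expected, against 1.71 ± 0.070 in Inv1, and in the other 23 bins it was 0.807 ± 0.016 against 0.948 ± 0.017. In Inv1 ESC the moved part took 3.91% ± 0.065, or 0.734 ± 0.017 times the Inv1 limb bud share. The 3 bins were there at 1.04 ± 0.048 and the other 23 at 0.697 ± 0.012. Contact of the stretch with the rest of the Epha4 domain was 3.996% ± 0.074 in Inv1DelCTCF and 2.70% ± 0.056 in Inv1 ESC, against 4.17% ± 0.075 in Inv1.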

How the data were processed

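Capture Hi-C over 10 Mb of chromosome 1 was analysed for 7 libraries. Per the submitters' processing notes, the build was mm9, and Bowtie2 (2.2.6) was used together with Juicer. The gene tables hold 1 score per gene, scaled by the authors by a rule not given in the sources used here. Of the 2 kinds of file, the maps hold contact signal per pair of 10 kb bins, balanced by the authors (Knight-Ruiz, per the file names). For Inv2, Inv3 and Inv4 the deposited map is a score with negative values. Outside the inversions 82.6%, 84.1% and 86.9% of these lay within 1% of WT signal times 0.423, 0.369 and 0.334.

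Read pairs were recovered as signal over 1 factor per bin, which gave values within 0.1 of a whole number for 100% of those under 20 in the other maps. The step was tested on simulated maps without WT signal taken away. Recovery of read pairs from the Inv2 to Inv4 maps was thus not simulated. Mutant maps are in rearranged coordinates, and segments were turned back by the best mirrored match of bin factors, with the right end set beforehand. Shares divide by all off-diagonal contacts of the stretch, and observed over expected values leave out any bin whose number of listed pairs is below 25% of the median. All 103 symbols were found in RefSeq (GRCm38.p6), 98 under the current symbol and 5 under a synonym. Python 3.11.15 and numpy 2.4.6 were used.

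The rule for named genes took the members, the genes beside them in table order, the 4 nearest to each by distance, the highest gene of each table, Prkag3 and Epha4 as references, and a list of neuronal genes. Table values could not be tied to map bins as planned, so the stretch between breakpoints stands in for single bins. Members and lists were chosen with earlier results of these data known. With 1 library per condition there is no test. Intervals and errors cover counting only.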

Additional observations from a re-analysis of the deposited data

How the results depend on the processing

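All 83 alternative values of the 19 log2 ratios kept the direction of the value reported. For part of them this was fixed beforehand. A change of pseudocount cannot turn the direction of a ratio, and setting negative signal to 0 changes nothing in maps without negative values. Another 16 alternatives concern counts of genes and 10 concern ranks, which have no direction. Log2 ratios to WT of Cdk5r2 in Inv1 to Inv4 were 3.73, 4.11, 5.60 and 2.17 with a pseudocount of 0.05, and 0.96, 1.17, 2.22 and 0.34 with 5. Those of Fev were 0.56, 0.90, 2.71 and -0.34 with 5, and -4.76 in Inv4 with 0.05. Centred on the median gene, Cdk5r2 was at 2.16 in Inv1, 3.76 in Inv3 and 0.34 in Inv4, and Fev at 0.78, 3.54 and -2.94. Genes over 2-fold above WT numbered 37, 20, 47 and 54 in Inv1 to Inv4. At 4-fold they were 21, 12, 18 and 25, and with a pseudocount of 5 17, 7, 5 and 11. With a pseudocount of 0.05 they were 59 in Inv1 and 35 in Inv2, and after centring 21 in Inv1, 24 in Inv3 and 24 in Inv4.

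For the stretch with the moved part, log2 ratios to WT were 2.54 in Inv1, 2.66 in Inv2, 4.45 in Inv3, 2.22 in Inv1DelCTCF and 2.09 in Inv1 ESC. As observed over expected they were 1.65, 1.37, 2.09, 1.34 and 1.16. With the 13 bins of the moved part nearest the shared breakpoint they were 2.70 in Inv1, 4.57 in Inv3, 2.51 in Inv1DelCTCF and 2.26 in Inv1 ESC. In Inv3, 1 more bin on either side gave 4.31, and a frame shifted by -1 bin, added after seeing the data, gave 4.21. Further alternatives were also added then. For Inv4 with the rest of the Epha4 domain (3.27), they gave 3.19 with negative signal at 0, 1.102 as observed over expected and 3.33 with more bins. For Inv4 with the upstream region (-2.69) they gave -1.98 and -0.69, in the same order. For Inv3 with the Cryba2 to Slc23a3 region (-3.08) they gave -2.61, -0.54 and -2.46. The cause was not tested. No paired analysis was possible because each condition is 1 library. Low signal of Inv2 to Inv4 is limited by the subtraction, and Fev in Inv4 has no fold.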
